A study of Mus musculus with 28 samples.

Results

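The comparison described here set the dorsal hippocampus of fear-conditioned mice given corticosterone against that of fear-conditioned mice given the compound coded C118. The members were chosen from the treatment in the titles and labels, not from any measured value. They were the 5 libraries labelled Cort (library numbers 4, 11, 17, 30 and 36) and the 5 labelled C118 (7, 13, 20, 33 and 38), 10 of the 28 libraries in the series. All were poly(A)-enriched, strand-preserving RNA libraries from male C57Bl6 mice that had undergone auditory fear conditioning. The other conditioned libraries carried Vehicle (4), RU486 (5) or C108 (5), and 4 Basal libraries came from mice with neither conditioning nor treatment. Vehicle and Basal are used below only to show where the levels lay. The labels give no dose, route, interval to dissection or age, no structure for C118, and do not say whether a library is 1 animal, so p-values measure the spread between these libraries. A matched dose of the 2 ligands therefore cannot be established.

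Corticosterone is the main glucocorticoid of mice. It binds the glucocorticoid receptor (Nr3c1) and, with higher affinity, the mineralocorticoid receptor (Nr3c2), both of which are abundant in hippocampal neurons. The ligand-bound receptor enters the nucleus, binds palindromic DNA elements and raises the transcription of genes such as Fkbp5, Tsc22d3, Sgk1 and Per1, and it also restrains inflammatory transcription. Glucocorticoids given around training act on the storage of fear memory in rodents. The series describes its compounds as ligands used to modulate the glucocorticoid receptor, and the comparison asks how the hippocampal transcriptome differs between the natural hormone and C118.

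The stretches of promoter that bear on the gene groups described below are shown first, because many interferon-stimulated genes carry a short element near their start and the receptor binds another. All come from the RefSeq windows of GRCm38.p6, which run from 250 bases before to 50 after an annotated start. Capitals mark matches on either strand. In the interferon genes the motif searched was GAAA, any 2 bases, GAAA, which is the core of the interferon-stimulated response element. Overlapping matches were allowed and run together in the capitals.
Isg15 (chr4:156200835-156200936, minus strand): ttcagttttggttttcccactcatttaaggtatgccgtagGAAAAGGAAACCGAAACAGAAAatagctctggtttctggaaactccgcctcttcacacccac
Ifit1 (chr19:34640745-34640853, plus strand): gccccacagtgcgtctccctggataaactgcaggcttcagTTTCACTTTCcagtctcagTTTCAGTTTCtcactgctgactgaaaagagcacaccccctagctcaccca
Ifit3 (chr19:34583333-34583456, plus strand): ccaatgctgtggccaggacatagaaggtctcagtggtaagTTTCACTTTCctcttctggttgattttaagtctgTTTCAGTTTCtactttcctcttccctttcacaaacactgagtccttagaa
Ifit3b (chr19:34607729-34607852, plus strand): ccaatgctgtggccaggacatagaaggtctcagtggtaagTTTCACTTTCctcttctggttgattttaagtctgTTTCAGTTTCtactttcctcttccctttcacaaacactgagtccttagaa

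The Isg15 stretch held 3 overlapping matches, and those of Ifit1, Ifit3 and Ifit3b held 2 each. The 124 bases shown for Ifit3 and Ifit3b had 0 differences between them, and the genes themselves are close copies, so how reads were divided between them is uncertain. The motif was present in a window of 10 of the 15 interferon-list genes that had one, against 3.99% of the 27025 genes with a RefSeq window.

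For the receptor targets the motif searched was the palindrome GNACA, any 3 bases, TGTNC. It was present in a window of 4 of the 34 receptor targets that had one (Sgk1, Mt1, Map3k6 and Fam107a), against 0.537% of all genes with a RefSeq window. Capitals again mark the match.
Sgk1 (chr10:21993662-21993754, plus strand): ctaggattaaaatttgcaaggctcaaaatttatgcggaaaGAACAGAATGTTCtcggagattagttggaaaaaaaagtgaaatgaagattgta
Map3k6 (chr4:133240597-133240689, plus strand): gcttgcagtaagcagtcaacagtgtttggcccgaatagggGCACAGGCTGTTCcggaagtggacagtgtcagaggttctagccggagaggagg

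These are matches of letters in a short window and not measured binding sites, and a window without the letters says nothing about the receptor elsewhere at the gene.

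The libraries compared were of similar depth. Reads assigned to genes numbered 19015438 to 20030621 in Cort libraries and 17334022 to 20295147 in C118 libraries. Mitochondrially encoded genes took 3.76 to 7.21% of those reads in Cort libraries and 3.46 to 8.78% in C118 libraries. The tissue label was set beside marker lists. Every measured member of the pyramidal, CA1, CA3 and CA2, and dentate gyrus lists had reads in all 10 libraries. The lowest value was 1.59 CPM for Dcn, which is also used here as a meningeal marker. CPM is the usual scaling of a gene's counts to its library's total, after TMM normalisation. The presence of such reads does not by itself settle the tissue. Markers of neighbouring tissue were present as well and differed between libraries. A list score, used here for such differences, is the mean over the list's genes of log2 CPM centred on the mean of the 28 libraries. Thalamus scores were 0.96, 0.73, -0.04, 0.74 and -0.41 in Cort libraries 4, 11, 17, 30 and 36, against -0.55 to 0.04 in C118 libraries. Choroid plexus scores were 2.65 in Cort library 4, 1.67 in Cort library 30 and -1.3 to -0.32 in the other Cort libraries, against 1.3 in C118 library 13 and -1.31 to -0.8 in the other C118 libraries. C118 libraries 20 and 38 stood apart in interferon-stimulated genes, with scores of 1.31 and 0.71 against -0.28 to 0.19 in the other 3. The Vehicle libraries differed in make-up as well. Their thalamus scores were 1.05, 1.82, -0.33 and -0.32 in libraries 3, 16, 23 and 29. Vehicle library 16 also had a neocortex score of 0.7 and a CA1 score of -0.68. Vehicle library 29 had scores of -0.69 for CA3 and CA2, -0.57 for dentate gyrus and -0.37 for pyramidal markers. Within bulk tissue, fewer cells of a type and less RNA per cell cannot be told apart.

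Across 16735 expressed genes, no gene passed an adjusted p of 0.05 in edgeR's quasi-likelihood test with Benjamini-Hochberg adjustment (0 genes, 0% called). The smallest adjusted p was 0.101, shared by Lrig1, Isg15, Fkbp5, Dzip1l and Cdkn1a. At an unadjusted p under 0.05, 713 genes (4.26%) were counted, of which 417 (2.49% of all tested) were higher and 296 (1.77%) lower in Cort, and 31 genes had p under 0.001. Every Cort library lay above every C118 library for 83 genes (0.496%) and below for 53 genes (0.317%). DESeq2 on the same counts called 15 genes (9 higher and 6 lower in Cort), among them Lrig1, Fkbp5, Cdkn1a, Pnpla2, Isg15, Dbp and Cx3cr1, and limma-voom called 0 genes, with 673 below 0.05 before adjustment. The positive values among all genes numbered 8437 (50.4%), and the median log2 difference was 0.001.

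The precision of these libraries bounded most differences. The common biological coefficient of variation was 0.133 on 22 residual degrees of freedom. For 15236 genes (91%) the 95% interval of the log2 difference lay within 2-fold in either direction, and for 68.5% it lay within 0.5 log2 units. The median absolute log2 difference was 0.079. A missed threshold does not show that the ligands acted alike on a gene, and the interval is given below where a gene is described.

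**Figure D1:**
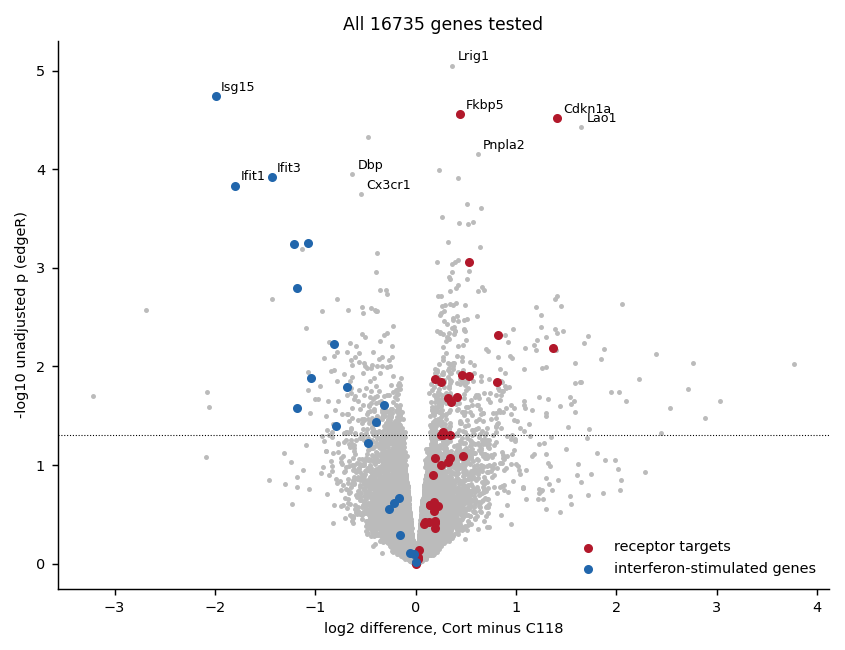
Each point is 1 of the 16735 genes tested, with the log2 difference (Cort minus C118) on the x axis and the negative log10 of the unadjusted edgeR p on the y axis; the dotted line marks 0.05. Receptor targets (red) lie right of 0 and interferon-stimulated genes (blue) mostly left of it, with Lrig1 highest at a log2 difference of 0.36.

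Genes known to be induced by corticosteroid receptors were higher with corticosterone than with C118, most of them by small amounts. All 40 members of the receptor target list were tested, and all 40 had positive log2 differences, where 50.4% of all genes did. The smallest were 0.0001 for Glul, which is no difference, and 0.01 for Sgk1. Sgk1, Per1 and Tsc22d3 changed sign under some other fits. The median of the 40 was 0.24, where that of all genes was 0.001. At an unadjusted p under 0.05 there were 17 higher and 0 lower, where the backgrounds are 2.49% and 1.77%, and no member passed the adjusted threshold. In 5 (Fkbp5, Cdkn1a, Mfsd2a, Pla2g3 and Sult1a1) every Cort library lay above every C118 library, where the background is 0.496%. The list was drawn up with earlier results of these libraries known, and its count is a description.

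Fkbp5, an Hsp90 co-chaperone that lowers the affinity of the glucocorticoid receptor for hormone, lies on chromosome 17 at 28399094 to 28517527 (mm10). Its level was 159, 159, 162, 180 and 175 CPM in Cort libraries, against 111, 110, 113, 132 and 146 CPM in C118 libraries. The groups did not overlap, and the closest libraries were 159 CPM in Cort and 146 CPM in C118. The log2 difference was 0.44 ± 0.09 (SE; 95% interval 0.26 to 0.63; edgeR adjusted p = 0.101). Vehicle libraries had 124, 115, 137 and 144 CPM and Basal libraries 59.9 to 80.6 CPM. The C118 mean of 122.6 CPM lay inside the Vehicle range and above every Basal library.

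Cdkn1a, the cyclin-dependent kinase inhibitor p21, lies on chromosome 17 at 29090976 to 29100727. It had 80.7, 49.5, 46.8, 55.4 and 41.9 CPM in Cort libraries, against 21.8, 22.5, 18.5, 21.9 and 18.3 CPM in C118 libraries. Every Cort library was at least 41.9 CPM and every C118 library at most 22.5 CPM. The log2 difference was 1.41 ± 0.28 (SE; 95% interval 0.84 to 1.99; edgeR adjusted p = 0.101). Vehicle libraries had 51.8, 45.9, 40.2 and 39.6 CPM and Basal libraries 5.36 to 11.7 CPM. Set against the same 4 Vehicle libraries, the log2 difference was 0.30 ± 0.28 for Cort and -1.11 ± 0.29 for C118 (SE), so the distance between the ligands lay mostly on the C118 side. Fitted on the 10 libraries alone, Cdkn1a passed the threshold (adjusted p = 0.00736). Over the 22 alternatives tried, the adjusted p ranged from 0.00633 to 1 for both Fkbp5 and Cdkn1a, and the log2 difference from 0.40 to 0.51 for Fkbp5 and from 1.11 to 1.49 for Cdkn1a.

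The other members at an unadjusted p under 0.05 are described by examples singled out after their values were seen. Mfsd2a, the transporter of lysophospholipids at the blood-brain barrier, had 24.5 to 38.1 CPM in Cort libraries, against 17.4 to 24.3 CPM in C118 libraries, a log2 difference of 0.53 ± 0.14 (SE). Zbtb16, a zinc finger transcription factor, had 75.1 to 95.4 CPM in Cort libraries, against 60.7 to 76.3 CPM in C118 libraries (log2 difference 0.25 ± 0.10). Only 1 C118 library, number 7, reached into the Cort range of Zbtb16. Pdk4, the kinase that turns off pyruvate dehydrogenase, had 11.7 to 20.2 CPM in Cort libraries, against 8.97 to 14.1 CPM in C118 libraries. Klf15, a Kruppel-like factor of amino acid and lipid metabolism, had 25.2 to 40.1 CPM in Cort libraries, against 22.6 to 30.8 CPM in C118 libraries. Both of these overlapped between the groups, and both were highest in Cort libraries 4, 11 and 30. Over all alternatives the log2 difference ranged from 0.11 to 0.55 for Pdk4 and from 0.04 to 0.41 for Klf15.

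Other members of this group had lower levels. Lcn2, an iron-siderophore binding protein, had 0.256 to 1.53 CPM in Cort libraries and 0.201 to 0.753 CPM in C118 libraries. Map3k6, a stress kinase whose promoter stretch is shown above, averaged 4.86 ± 0.96 CPM in Cort and 3.35 ± 0.50 CPM in C118 libraries (SD, n = 5 each; log2 difference 0.54 ± 0.20, SE). Pla2g3, a secreted phospholipase, had 3.33 to 5.78 CPM in Cort libraries, against 1.71 to 3.01 CPM in C118 libraries. Pla2g3 lies across Inpp5j on the opposite strand, which was also higher in Cort (log2 difference 0.38), and the strand setting of the counting is not given in the sources used here. Sult1a1, a sulfotransferase, had 9.36 to 12.5 CPM in Cort libraries, against 6.28 to 8.91 CPM in C118 libraries.

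The remaining classical targets did not separate the ligands. Tsc22d3, which encodes the leucine zipper protein GILZ, had 146, 121, 95.5, 115 and 84.1 CPM in Cort libraries, against 92.3, 93.5, 103, 104 and 80.2 CPM in C118 libraries, and the groups overlapped (log2 difference 0.25, 95% interval -0.06 to 0.56). Sgk1, the serum and glucocorticoid regulated kinase, had 128 to 191 CPM in Cort libraries and 130 to 168 CPM in C118 libraries, with a log2 difference of 0.01 and a 95% interval of -0.42 to 0.43. Per1, a clock gene with receptor elements, averaged 64.1 ± 13.3 CPM in Cort and 59.8 ± 5.8 CPM in C118 libraries (SD, n = 5 each; 95% interval of the log2 difference -0.13 to 0.33). Cort library 4 had the highest Tsc22d3, Sgk1 and Per1 of the 10 libraries. All 3 intervals included 0, and all 3 lay within 2-fold in either direction.

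The receptor genes themselves were close between the ligands. Nr3c1, the glucocorticoid receptor, had 83.6, 74.2, 79.5, 72.8 and 75.6 CPM in Cort libraries, against 101, 85.2, 90.2, 76.8 and 78.1 CPM in C118 libraries (log2 difference -0.16, 95% interval -0.34 to 0.01). Nr3c2, the mineralocorticoid receptor, averaged 299.9 ± 52.4 CPM in Cort and 300.2 ± 22.2 CPM in C118 libraries (SD, n = 5 each; 95% interval -0.26 to 0.26). Of the 21 receptor, chaperone and cofactor genes tested, 11 had positive and 10 negative differences and 0 had an unadjusted p under 0.05.

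**Figure D2:**
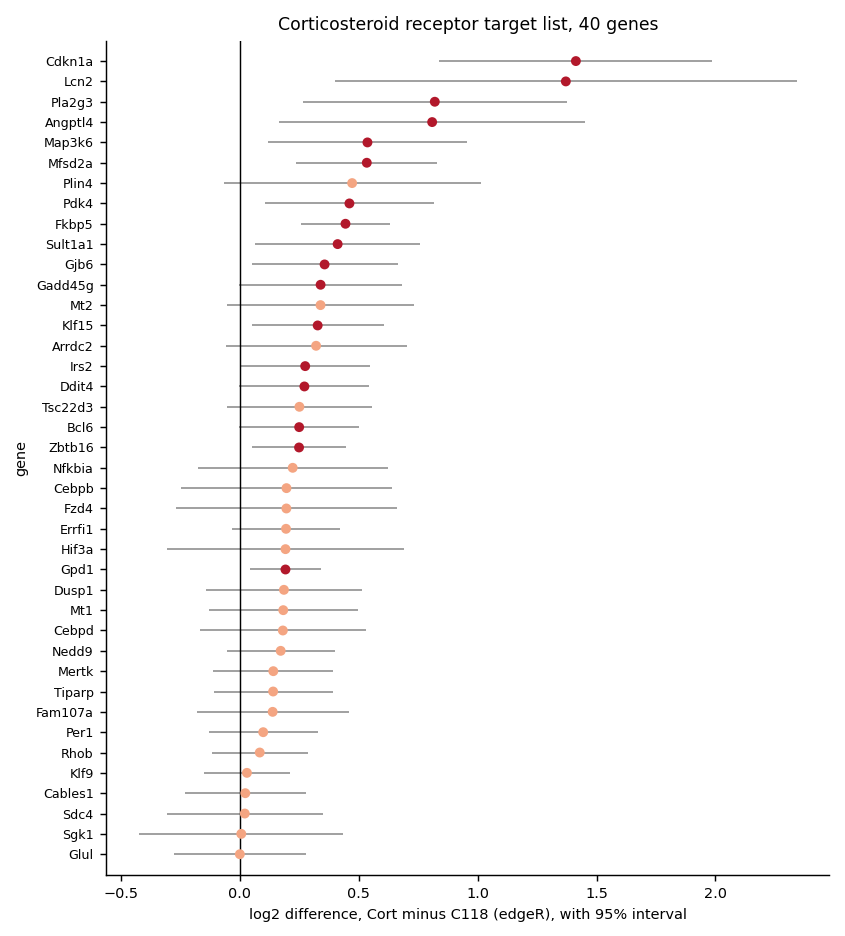
Log2 differences (Cort minus C118, x axis) of the 40 receptor targets (y axis) with 95% intervals; dark points have an unadjusted edgeR p under 0.05. All 40 points lie right of 0 and 17 are dark, led in size by Cdkn1a at 1.41. Ddit4, Bcl6 and Gadd45g are dark although their intervals reach just below 0. The intervals use the 22 residual degrees of freedom, and the test uses more.

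The receptor target scores of the libraries were 0.52, 0.41, 0.3, 0.42 and 0.16 in Cort libraries 4, 11, 17, 30 and 36, against 0.05, 0.06, 0.12, 0.1 and -0.09 in C118 libraries 7, 13, 20, 33 and 38. Each Cort library lay above each C118 library, with 0.16 in Cort library 36 next to 0.12 in C118 library 20. Vehicle scores of 0.12 to 0.36 overlapped the Cort range, and all Basal scores were at or below -0.37. The Cort libraries with the highest receptor target scores (4, 11 and 30) were also those with high thalamus scores. Without those 3 the median of the 40 receptor targets was 0.11, and without Cort 4 and Cort 30 it was 0.18, both alternatives chosen after the data were seen.

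The opposite direction was led by interferon-stimulated genes, which were lower in Cort than in C118 libraries, with most of their highest values in C118 libraries 20 and 38. Of 25 listed genes 21 were tested; 20 of these had negative log2 differences and 1 a positive one, with a median of -0.69. At an unadjusted p under 0.05 there were 13 lower and 0 higher in Cort, where the background is 1.77%. In none of the 21 were the 2 groups of libraries apart, where 0.317% of all genes lay apart with Cort below. None passed the adjusted threshold.

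Isg15, a ubiquitin-like protein joined to other proteins after interferon, lies on chromosome 4 at 156199424 to 156200818. It had 0.511, 0.265, 0.206, 0.247 and 0.409 CPM in Cort libraries, against 0.984, 1.16, 2.95, 0.423 and 1.1 CPM in C118 libraries. The level was low in every library, and C118 library 33 lay inside the Cort range. The log2 difference was -1.99 ± 0.39 (SE; edgeR adjusted p = 0.101), and without C118 libraries 20 and 38 it was -1.36. Vehicle libraries had 0.335 to 0.723 CPM and Basal libraries 0.548 to 1.07 CPM, which lie between the Cort and C118 means of 0.33 and 1.32 CPM.

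Ifit1, Ifit3 and Ifit3b encode tetratricopeptide proteins that bind viral RNA or its sensors, and they stand side by side on chromosome 19. Ifit3 had 2.71, 2.49, 3.1, 3.46 and 3.27 CPM in Cort libraries, against 5.36, 3.47, 15.6, 3.17 and 13 CPM in C118 libraries. Ifit1 had 1.02, 0.952, 0.929, 1.38 and 0.767 CPM in Cort libraries, against 2.19, 2.26, 8.32, 0.476 and 4.42 CPM in C118 libraries. In both genes C118 libraries 20 and 38 were the highest of the 10, and C118 library 33 lay within or below the Cort range. Ifit3b had 1.34 to 2.54 CPM in Cort libraries, against 8.84 and 7.13 CPM in C118 libraries 20 and 38 and 2.37 to 2.41 CPM in the other 3.

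The same libraries held the highest values of Oasl2, Irf7 and others. Oasl2, an oligoadenylate synthetase-like protein, had 11.7 and 6.18 CPM in C118 libraries 20 and 38, against 1.39 to 2.71 CPM over the Cort libraries. Irf7, the transcription factor that amplifies type I interferon, had 6.84 CPM in C118 library 20 and 1.06 to 2.01 CPM in the other C118 libraries, against 0.774 to 1.78 CPM in Cort libraries. Rtp4 and Usp18 were likewise highest in these 2 libraries. Without C118 libraries 20 and 38 the list median was -0.07, and the log2 difference was -0.69 for Ifit1, -0.41 for Ifit3 and -0.14 for Oasl2. Without C118 library 20 alone the list median was -0.29. Without C118 library 33, which had the lowest score of its group, Ifit1, Ifit3 and Isg15 passed the threshold (smallest adjusted p = 0.00735; over all alternatives the adjusted p of Ifit1 ranged from 0.00735 to 1).

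**Figure D3:**
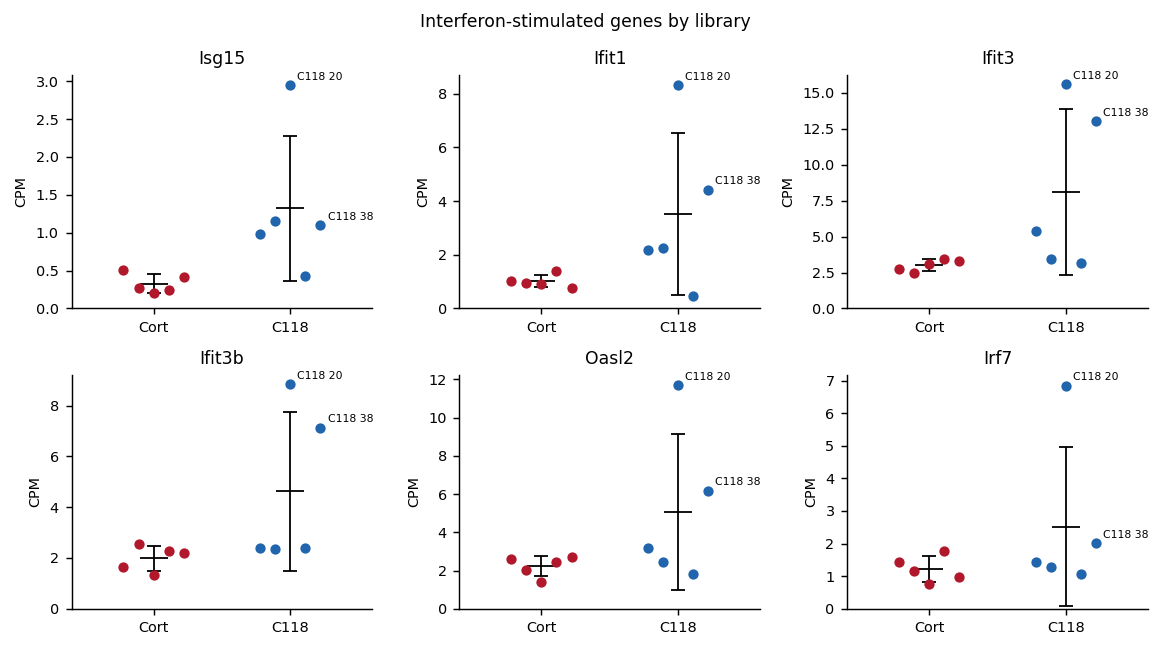
Levels in CPM (y axes, from 0) of 6 interferon-stimulated genes in the 5 Cort (red) and 5 C118 (blue) libraries, with mean and SD as bars. C118 libraries 20 and 38, marked, reach 15.6 and 13 CPM for Ifit3, while the Cort libraries stay at or under 3.46 CPM.

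Genes outside these lists made up most of the 20 with the smallest p, of which 14 were higher and 6 lower in Cort. In 12 of the 20 the libraries did not overlap, where over all genes 0.496% lay apart with Cort above and 0.317% with Cort below. The 20 were picked by p in these same libraries, so lack of overlap follows in part from the choice. The Vehicle mean lay between the means of the ligands in 16 of them, with Cort farther from Vehicle in 9 and C118 farther in 11. Both distances use the same Vehicle libraries. Genes picked for a wide gap between the ligands tend to have Vehicle in between, and the share over all genes was not counted.

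Lrig1, a membrane protein that turns down ErbB and other growth factor receptors, had the smallest p. It lies on chromosome 6 at 94604529 to 94700158 and had 40.8, 38.3, 35.1, 42 and 42.7 CPM in Cort libraries, against 27.8, 31.4, 32.6, 30.6 and 32 CPM in C118 libraries. The groups did not overlap, and the log2 difference was 0.36 ± 0.07 (SE; 95% interval 0.22 to 0.51; edgeR adjusted p = 0.101). Vehicle libraries had 30.9 to 36.2 CPM and Basal libraries 20.3 to 24.1 CPM. Lrig1 passed the threshold with DESeq2 and with the sample number as a covariate, where the lowest adjusted p was 0.0016, but not with any 1 of the 10 libraries left out.

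Pnpla2 and Lao1 were also separated between the ligands. Pnpla2, the lipase that starts triglyceride breakdown, had 40, 33.4, 28.1, 31.7 and 27.8 CPM in Cort libraries, against 21.8, 22.9, 20.9, 20.8 and 18.5 CPM in C118 libraries (log2 difference 0.62 ± 0.13, SE). Lao1, an L-amino acid oxidase, had 1.23, 1.06, 1.03, 1.33 and 0.767 CPM in Cort libraries, against 0.219, 0.232, 0.368, 0.423 and 0.452 CPM in C118 libraries (log2 difference 1.65 ± 0.34, SE). Vehicle libraries had 19.6 to 32.1 CPM of Pnpla2 and 0.39 to 1.14 CPM of Lao1, which overlapped both ligand groups for each gene. Mthfd2, a mitochondrial folate enzyme, averaged 16.1 ± 3.8 CPM in Cort and 11.2 ± 1.2 CPM in C118 libraries (SD, n = 5 each), and its groups overlapped.

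Wbp1l, Bcl2l1 and Tiam2 had small differences with no overlap between the groups. Wbp1l had 54.8 to 58.7 CPM in Cort libraries, against 46.9 to 49.3 CPM in C118 libraries, a log2 difference of 0.24 ± 0.05 (SE). Bcl2l1, the anti-apoptotic protein Bcl-xL, had 124 to 151 CPM in Cort libraries, against 109 to 119 CPM in C118 libraries. Tiam2, an exchange factor for Rac GTPases, had 44 to 59 CPM in Cort libraries, against 34.4 to 40.9 CPM in C118 libraries, and its Vehicle mean of 35.4 CPM was near that of C118.

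Dzip1l, a ciliary zinc finger protein, had 18 to 22.5 CPM in Cort libraries, against 14.4 to 15.4 CPM in C118 libraries. Ptgfrn, a membrane partner of the prostaglandin F receptor, had 16.5 to 20.9 CPM in Cort libraries, against 12.4 to 14.8 CPM in C118 libraries. In the same Vehicle libraries Ptgfrn had 15.5 to 25.1 CPM, all above every C118 library, and Dzip1l had 13.7 to 18.2 CPM, which overlapped both ligand groups. Adamts1, a secreted metalloprotease, had 22.3 to 27.3 CPM in Cort libraries, against 13.1 to 21 CPM in C118 libraries. Irak2, a kinase downstream of interleukin and Toll-like receptors, had 15.8 to 21 CPM in Cort libraries and 11.8 to 17.3 CPM in C118 libraries, with overlap through C118 library 33.

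**Figure D4:**
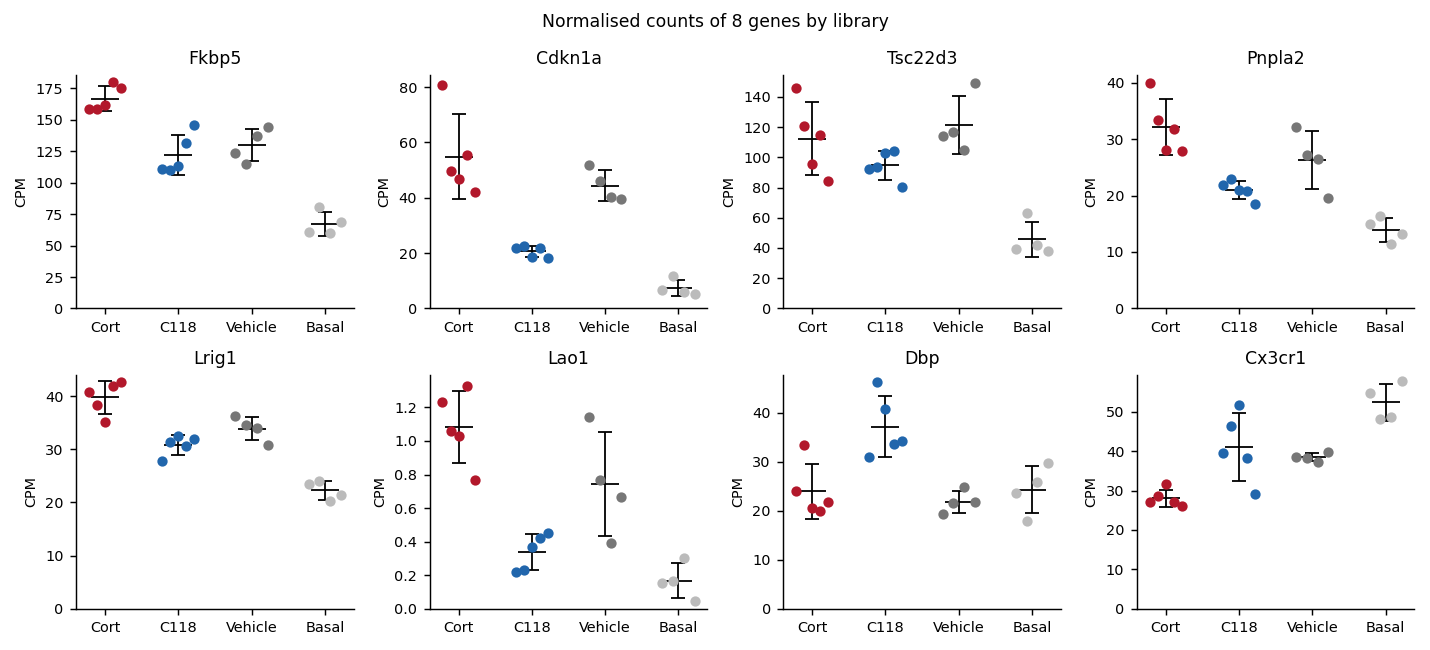
Levels in CPM (y axes, from 0) of 8 genes in Cort, C118, Vehicle and Basal libraries, with mean and SD as bars (n = 5, 5, 4 and 4). Cdkn1a in C118 (at most 22.5 CPM) lies below Cort and Vehicle and above Basal, while Dbp is higher in C118 than in the other 3 groups shown on average.

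The 3 leading genes of the myeloid lineage did not move one way. Cx3cr1, the fractalkine receptor of microglia, had 27, 28.7, 31.6, 27.2 and 26.1 CPM in Cort libraries, against 39.6, 46.4, 51.8, 38.2 and 29.1 CPM in C118 libraries. C118 library 38 alone lay in the Cort range, and without it Cx3cr1 passed the threshold, along with Fkbp5 and Inpp5d (smallest adjusted p = 0.0264; over all alternatives the adjusted p of Cx3cr1 ranged from 0.0349 to 1). Inpp5d, the inositol phosphatase SHIP of blood cells and microglia, had 7.83 to 10.6 CPM in Cort libraries and 9.59 to 14.4 CPM in C118 libraries. Nrros, which anchors latent TGF-beta on microglia, ran the other way, with 9.41 to 16.1 CPM in Cort libraries, against 6.83 to 9.3 CPM in C118 libraries.

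Most members of the microglia list differed little. Of its 20 genes, 16 had negative and 4 positive differences, with a median of -0.07, and 3 (Cx3cr1, Gpr34 and P2ry12) were lower in Cort at an unadjusted p under 0.05, where the background is 1.77%. Gpr34, a lysophosphatidylserine receptor, had 3.84 to 10 CPM in Cort libraries, against 4.52 in C118 library 38 and 11.5 to 15.6 CPM in the other C118 libraries. P2ry12, the purine receptor of resting microglia, had 16.2 to 27.8 CPM in Cort libraries, against 14 in C118 library 38 and 27.5 to 38.6 CPM in the other C118 libraries. Microglia scores were lowest in Cort library 36 (-0.43) and C118 library 38 (-0.5), which were also the libraries with the smallest mitochondrial shares of their groups (3.76 and 3.46%). The part of those 2 libraries' make-up in the result was not tested.

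Clock genes were mixed in sign, and Dbp, Nr1d1, Nr1d2 and Ciart, those with the smallest p, were lower in Cort. Of 22 tested, 14 had positive and 8 negative differences (median 0.04), and at an unadjusted p under 0.05 there were 4 lower and 1 higher, where the backgrounds are 1.77% and 2.49%. Dbp, a D-box transcription factor driven by the clock, had 24.1, 33.4, 20.5, 19.9 and 21.7 CPM in Cort libraries, against 30.9, 46.3, 40.7, 33.6 and 34.3 CPM in C118 libraries. Cort library 11 alone reached the C118 range. The log2 difference was -0.63 ± 0.14 (SE; edgeR adjusted p = 0.173), and without Cort library 11 the gene passed (adjusted p = 0.0468, with a range of 0.0202 to 0.947 over all alternatives). Vehicle libraries, at 19.3 to 24.8 CPM, lay with the Cort libraries. The mean was 39.82 CPM in RU486 and 29.7 CPM in C108 libraries, beside 37.17 CPM in C118 libraries. Dbp shares its end with Sphk2 on the other strand, whose difference had the opposite sign (0.21).

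Nr1d1 and Nr1d2 encode the repressors REV-ERB alpha and beta. Nr1d1 had 66.7, 69.5, 52.9, 50.7 and 71.3 CPM in Cort libraries, against 76.1, 91.8, 76, 73.4 and 92.2 CPM in C118 libraries, and the groups did not overlap. It was the only 1 of the 22 clock genes with all Cort libraries below all C118 libraries, where 0.317% of all genes were. Nr1d2 averaged 84.8 ± 6.3 CPM in Cort and 103.3 ± 9.5 CPM in C118 libraries (SD, n = 5 each). Ciart, a clock-controlled repressor, had 4.7 to 7.78 CPM in Cort libraries and 7.33 to 11.8 CPM in C118 libraries. Nfil3, a repressor at the D-box, ran the other way with 9.31 to 16.5 CPM in Cort libraries and 6.84 to 14.2 CPM in C118 libraries. The time of day of each dissection is not given.

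Immediate early genes, which neurons transcribe within minutes of activity, mostly overlapped between the ligands. Of 39 tested, 29 had positive and 10 negative differences (median 0.14), with 4 higher and 1 lower at an unadjusted p under 0.05, where the backgrounds are 2.49% and 1.77%. Arc, a postsynaptic regulator of AMPA receptors, had 290, 88.1, 61, 130 and 107 CPM in Cort libraries, against 101, 112, 102, 74.1 and 115 CPM in C118 libraries. Fos had 17.2, 3.97, 4.85, 10.5 and 12.3 CPM in Cort libraries, against 9.46, 6.37, 9, 5.76 and 13.7 CPM in C118 libraries. Cort library 4 was the highest for both, and the Cort range enclosed the C118 range of each. The 95% interval of the log2 difference was -0.24 to 1.09 for Arc, -0.64 to 0.91 for Fos and -0.29 to 1.21 for Npas4, an activity-driven transcription factor. Without Cort library 4 the list median was 0.02.

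Of the 39, 1 lay apart with Cort above (Trib1) and 1 with Cort below (Klf10), where 0.496% and 0.317% of all genes did. Trib1, a pseudokinase that steers protein degradation, had 10.8 to 15.5 CPM in Cort libraries, against 9.18 to 10.7 CPM in C118 libraries. Klf10, a Kruppel-like factor, had 23.3 to 31.7 CPM in Cort libraries, against 32.2 to 40.8 CPM in C118 libraries. Late activity-regulated genes had 17 positive and 10 negative differences among 27 (median 0.05), and the 17 MAP kinase phosphatase and Sprouty genes 11 and 6.

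Heat shock and chaperone genes had 22 positive and 2 negative differences among 24, with a median of 0.17 and 0 genes at an unadjusted p under 0.05. Their score was 0.69 in Cort library 4 and -0.14 to 0.1 in the other Cort libraries, against -0.08 to 0.14 in C118 libraries. Without Cort library 4 the list median was 0.03.

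Thalamus markers were higher on the Cort side. All 17 thalamus markers tested had positive differences (median 0.72), with 8 at an unadjusted p under 0.05, where the background is 2.49%. Ramp3, a receptor activity-modifying protein, had 24.8, 21.7, 8.77, 18 and 8.95 CPM in Cort libraries, against 6.12, 6.54, 5.1, 4.76 and 7.13 CPM in C118 libraries. Tcf7l2, a Wnt transcription factor of thalamic neurons, had 25.1, 16.6, 2.94, 17.6 and 2.25 CPM in Cort libraries, against 2.7 to 4.46 CPM in C118 libraries. Cort libraries 4, 11 and 30 were high for both genes, and Cort libraries 17 and 36 lay within or below the C118 range of Tcf7l2. Without those 3 the list median was 0.03.

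Choroid plexus markers showed the widest spread. All 16 tested had positive differences with a median of 1.39, and 0 had an unadjusted p under 0.05. Ttr, the thyroid hormone carrier secreted by the choroid plexus, had 1540, 16, 71, 558 and 34.1 CPM in Cort libraries, against 50.6, 420, 21.2, 34.8 and 13.4 CPM in C118 libraries. The groups overlapped throughout, and without Cort libraries 4 and 30 the list median was -0.58. Neocortex markers had 10 positive and 8 negative differences among 18, and meningeal markers 14 positive and 1 negative among 15 with a median of 0.35.

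The neighbouring-tissue values stand beside the receptor targets as follows. The summed level of the thalamus list was 620 to 891 CPM in Cort libraries and 536 to 712 CPM in C118 libraries, and that of the choroid plexus list 208 to 2700 CPM in Cort and 266 to 1040 CPM in C118 libraries. With thalamus and neocortex scores as covariates, Isg15 was the 1 gene called (adjusted p = 0.0412), and with the choroid plexus score it was Fkbp5 (adjusted p = 0.0416). Over all alternatives the adjusted p of Isg15 ranged from 0.00842 to 1. Of the thalamus list, Gbx2 did not pass the filter on low counts. The part of neighbouring tissue in the differences between the ligands, those of Isg15 and Fkbp5 included, was not tested.

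**Figure D5:**
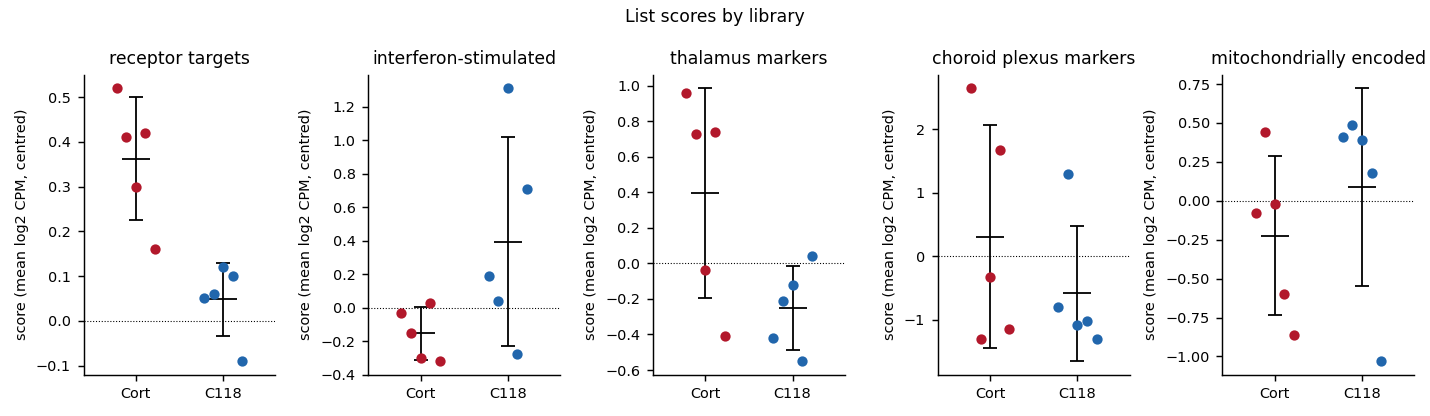
List scores (mean centred log2 CPM, y axes) of 5 gene lists in Cort (red) and C118 (blue) libraries, with mean and SD as bars (n = 5 each). Receptor target scores of all Cort libraries (0.16 to 0.52) exceed those of all C118 libraries (-0.09 to 0.12), whereas the other 4 lists overlap.

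Among the cells of the hippocampus itself, myelin genes had 24 negative differences of 24, with a median of -0.30 and 5 at an unadjusted p under 0.05, where the background is 1.77%. Aspa, the aspartoacylase of oligodendrocytes, had 8.75 to 16.6 CPM in Cort libraries and 9.99 to 26.5 CPM in C118 libraries. The summed level of the list was 5000 to 8860 CPM in Cort and 5190 to 8590 CPM in C118 libraries, so the sums overlapped in full. Myelin scores were 0.19, -0.58, -0.38, -0.17 and -0.37 in Cort libraries 4, 11, 17, 30 and 36. In C118 libraries 7, 13, 20, 33 and 38 they were 0.2, 0.16, 0.31, -0.19 and -0.3, so the scores overlapped in part. Precursor markers had 10 negative and 2 positive differences among 12, and 3 were lower in Cort at an unadjusted p under 0.05, against the same background.

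Dentate gyrus markers had 18 positive differences of 18, with a median of 0.15 and 1 at an unadjusted p under 0.05, where the background is 2.49%. That gene, Maml2, a Notch coactivator, had 50.9, 64, 59, 56.7 and 63.9 CPM in Cort libraries, against 52.9, 39.2, 35.4, 34.9 and 43.6 CPM in C118 libraries. Only C118 library 7 reached the Cort range. Pyramidal markers had 9 negative and 1 positive differences among 10 (median -0.11), CA1 markers 10 and 3 among 13, and CA3 and CA2 markers 7 and 8 among 15. Medians were 0.03 for astrocyte, -0.08 for GABAergic, 0.08 for endothelial, 0.05 for pericyte, 0.03 for immature neuron, 0.20 for blood and -0.17 for ependymal markers, and -0.06 for antigen presentation genes. At an unadjusted p under 0.05, 2 of 10 pyramidal, 1 of 13 CA1, 1 of 20 GABAergic and 1 of 22 astrocyte markers were lower in Cort (background 1.77%). In the other direction were 1 of 22 astrocyte and 1 of 22 endothelial markers (background 2.49%).

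Glutamate and GABA receptor lists had small medians. Glutamate receptor genes had a median of -0.04 over 22 genes and GABA receptor genes -0.09 over 14. At an unadjusted p under 0.05 there were 2 higher and 0 lower glutamate receptor genes, and 1 higher and 1 lower GABA receptor genes. The backgrounds are 2.49% and 1.77%. Grm4, a presynaptic metabotropic glutamate receptor, had 16.2, 15.5, 10, 13.3 and 9.1 CPM in Cort libraries 4, 11, 17, 30 and 36. In C118 libraries it had 6.92 to 9.99 CPM (log2 difference 0.68 ± 0.20, SE, with a range of 0.26 to 0.82 over all alternatives). Vehicle libraries spread from 8.03 to 22.7 CPM, the highest being library 16. Cort libraries 4, 11 and 30 and Vehicle library 16 also had high thalamus scores, whereas Vehicle library 29 had 15 CPM with a score of -0.32. The part of neighbouring tissue in Grm4 was not tested. Kcnk1, a background potassium channel, was the 1 of 40 potassium channels at an unadjusted p under 0.05, a share near the 2.49% of all genes. It had 127 to 134 CPM in Cort libraries, against 113 to 119 CPM in C118 libraries. The 22 neuropeptide genes had 14 positive and 8 negative differences (median 0.16). At an unadjusted p under 0.05, 2 of them were higher and 0 lower, against the same backgrounds. Of these, Pdyn, the opioid peptide precursor of dentate granule cells, had 22.9 to 27.8 CPM in Cort libraries, against 16.3 to 22.6 CPM in C118 libraries. Neither Kcnk1 nor Pdyn overlapped between the groups, where 0.496% of all genes lay apart with Cort above.

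Energy and protein synthesis genes had no member at an unadjusted p under 0.05. The 34 nuclear respiratory chain genes had a median of 0.01 and the 33 cytosolic ribosomal protein genes 0.04. The 13 mitochondrially encoded genes had a median of -0.34, with 12 negative. Their scores were -0.86 to 0.44 in Cort and -1.03 to 0.49 in C118 libraries. Cholesterol synthesis genes had 10 positive and 12 negative differences (median -0.05).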

How the data were processed

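The series measured messenger RNA of the dorsal hippocampus in 28 libraries. The authors deposited raw read counts per gene from HTSeq 0.6.1 on mm10, per the submitters' processing notes, and no source used here names the aligner. The table held 50686 genes, matched to GENCODE positions for 50462; 5 summary rows, 12.63 to 19.74% of reads, were left out. Genes passing edgeR's filterByExpr (minimum count 10, total 15) were fitted with TMM and the robust quasi-likelihood model (edgeR 4.0.16, R 4.3.3) on all 6 groups of libraries, and the Cort minus C118 contrast was adjusted over 16735 genes at 0.05. The code was tested on simulated data. Named genes were the 20 with the smallest p (under 20 passed) and 12 fixed genes, 30 in all; others were singled out after their values were seen. The members and the 35 lists were chosen with earlier results of these data known. The replicates of a group were distinct libraries. Alternatives used DESeq2 1.42.0, limma 3.58.1, RLE scaling, other filters, covariates and left-out libraries.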

Additional observations from a re-analysis of the deposited data

Results flagged for a closer look

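Within groups of 4 or 5 libraries, the highest or lowest library was set against the rest by the size of its gap relative to the group's range. Of 248 such groups 15 had a library far from the others, where chance flags about 1 in 20, which is 12.4. Among C118 libraries, number 13 had 420 CPM of Ttr (others 13.4 to 50.6) and a choroid plexus score of 1.3 (others -1.31 to -0.8). C118 library 20 had 6.84 CPM of Irf7, where the others had 1.06 to 2.01. C118 library 38 had the lowest mitochondrial share, 3.46% against 7.35 to 8.78%, with a mitochondrially encoded score of -1.03 against 0.18 to 0.49, and a heat shock score of 0.14 against -0.08 to -0.05.

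Among Cort libraries, number 4 had a heat shock score of 0.69 (others -0.14 to 0.1). Cort library 36 had a GABAergic score of 0.23 (others -0.12 to -0.05), an immature neuron score of -0.27 (others 0.09 to 0.21), an astrocyte score of -0.39 (others 0.02 to 0.16) and a microglia score of -0.43 (others -0.06 to -0.03). Among Vehicle libraries, number 23 had 99.5 CPM of Arc (others 56.1 to 63.3). Among Basal libraries, number 9 had 63.2 CPM of Tsc22d3 (others 38.1 to 42.1) and 130 CPM of Sgk1 (others 49.6 to 58.3), and number 14 had 5.84 CPM of Npas4 (others 3.33 to 3.53).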

How the results depend on the processing

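The count of 0 called genes held under RLE scaling, no filter, a stricter filter, limma-voom and without C118 20 and 38, Cort 4 and 30, or Cort 4, 11 and 30. Other fits gave other counts: the 10 libraries alone called 1 gene (1 higher in Cort), DESeq2 15 (9 higher, 6 lower), the sample number as a covariate 6 (5 higher, 1 lower: Cdkn1a, Fkbp5, Lrig1, Pnpla2, Tiam2 and Isg15), thalamus and neocortex scores 1 (1 lower) and the choroid plexus score 1 (1 higher). Leaving out 1 library gave 0 to 3 called genes, 0 to 1 higher and 0 to 3 lower: Dbp without Cort 11; Ifit1, Ifit3 and Isg15 without C118 33; Cx3cr1, Fkbp5 and Inpp5d without C118 38. The cause was not tested. No paired analysis was run, because no library number occurs in more than 1 group and no label links libraries across groups. Whether neighbouring library numbers share a day or batch is not given. Of 1230 values for the 56 genes singled out, 1163 kept their side and sign, 31 passed the threshold and 36 changed sign, none of them called. Sgk1 was -0.0039 under limma-voom, -0.0175 with sample number, -0.0544 with thalamus and neocortex scores, -0.0083 with the choroid plexus score, -0.15 without Cort 4 and 30 and -0.10 without Cort 4, 11 and 30. Nr3c2 was 0.0009 under the stricter filter and with sample number, 0.0487 and 0.0253 with those tissue scores, 0.0192 without C118 20 and 38, 0.11 without Cort 4 and 30 and 0.18 without Cort 4, 11 and 30. Fos was -0.0018 under limma-voom. Without Cort 4 and 30, Fos was -0.34, Arc -0.24, Per1 -0.0006 and Ttr -1.43. Without Cort 4, 11 and 30, Fos was -0.0515, Arc -0.26, Tsc22d3 -0.0743, Ttr -1.04 and Tcf7l2 -0.47. Ttr was -0.997 with thalamus and neocortex scores. Without C118 20 and 38, Usp18 was 0.13. Leaving out 1 library gave ranges of -0.0653 to 0.60 for Arc, -0.17 to 0.35 for Fos, -0.11 to 0.0718 for Nr3c2, -0.017 to 0.17 for Per1 and -0.0923 to 0.0602 for Sgk1. Of 490 list medians 479 moved by less than 1 SD of the scores. Genes near 1 CPM, such as Isg15 and Lao1, rest on few reads.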
